A study of Brachypodium distachyon with 20 samples.

Results

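The genes described here were high at the pre-embryo (PEM, also called pro-embryo) and transition (TRA) stages of Brachypodium distachyon embryos and lower in younger embryos, in embryos from the leaf middle stage on, in endosperm and in seed coat. They are 100 of the 23749 genes of the deposited table. A gene entered the ranking with a mean of at least 4 log2 CPM (reads per 1e+06 reads of the library, on a log2 scale) at both PEM and TRA, which 7768 genes had. The margin of a gene is the lower of its PEM and TRA means minus its highest mean among TCQ, LEM, LEL, MAT, EEN, LEN and SEC. The 100 genes with the largest margins were taken, after 7 genes known from patterning of the Arabidopsis embryo were set aside. The leaf early stage (LEE) was the only group that took no part in this choice. The values of all other groups chose the members, so levels and differences among them describe the members, and a comparison with LEE has a chosen value on its other side. TRA against PEM was tested because the rule used the lower of these means and not the direction of their difference. A wide gap between them lowers the margin at a given average, so the rule favoured like levels at PEM and TRA.

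The embryo groups, in order of development, were TCQ (2-cell embryo or quadrant), PEM, TRA, LEE (leaf early), LEM (leaf middle), LEL (leaf late) and MAT (mature). The other groups were early endosperm (EEN, taken at the time of TRA), late endosperm (LEN) and seed coat (SEC), both taken at the time of LEL. All plants were of the ecotype Bd21, grown under the same long-day regime, and were emasculated and hand-pollinated, with no other treatment. Each of the 10 groups had 2 libraries, each from embryos or grain tissues pooled within a replicate. The methods call the pools biological replicates without naming plants or sowings, so the p-values given here reflect only how far these libraries lie apart. For seed coat the labels mention the removal of the embryo alone, while the methods also mention that of the endosperm.

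In grasses, the pre-embryo is a small cluster of cells without visible organs. At the transition stage the embryo becomes bilateral, and the scutellum (the single cotyledon of grasses) and the embryo axis begin to part. Shoot meristem and first leaves become visible only at the leaf stages. Genes such as CUC2 (a regulator of organ boundaries in Arabidopsis), MGP and SHR (regulators of ground tissue patterning there) and WOX5 and PLT1 (regulators of root stem cells there) are known to act in the steps before organs can be seen. The sources used here gave no name for any member, so the members are described by identifier and by their expression. The identifier gives the chromosome, so that Bradi2g16591.1 lies on chromosome 2, and close numbers lie close together.

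The margins of the members ran from 1.29 to 3.70 log2 CPM, with a median of 1.59, and 21 members had a margin above 2. Just inside the limit stood Bradi2g01170.4 (rank 99, margin 1.303) and Bradi1g32420.1 (rank 100, 1.295), and just outside it Bradi4g29540.1 (1.294) and Bradi1g04070.1 (1.285), so the last places were decided by differences far below the spread between replicates. Of the 7 genes set aside, CUC2 and MGP had margins of 2.48 and 2.38 and would have ranked 11 and 12. SHR (1.18, rank 129), WOX5 (0.83, rank 282), PLT1 (0.60, rank 458), WOX9 (0.50, rank 569) and FIL (0.02, rank 1349) would not have been among the first 100. Among TCQ, LEM, LEL, MAT, EEN, LEN and SEC, TCQ had the highest mean for 56 members and LEM for 27. Of the embryo stages among them, TCQ and LEM are nearest in time. LEE, which lies between TRA and LEM, took no part. EEN had the highest of these means for 9 members, LEN for 3, SEC and MAT for 2 each and LEL for 1. PEM was higher than TCQ in all 100 members by limma (a linear model per gene that shares information on the spread across genes, called at an adjusted p under 0.05), against 28.7% of all tested genes, which the choice of members fixes.

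**Figure D1:**
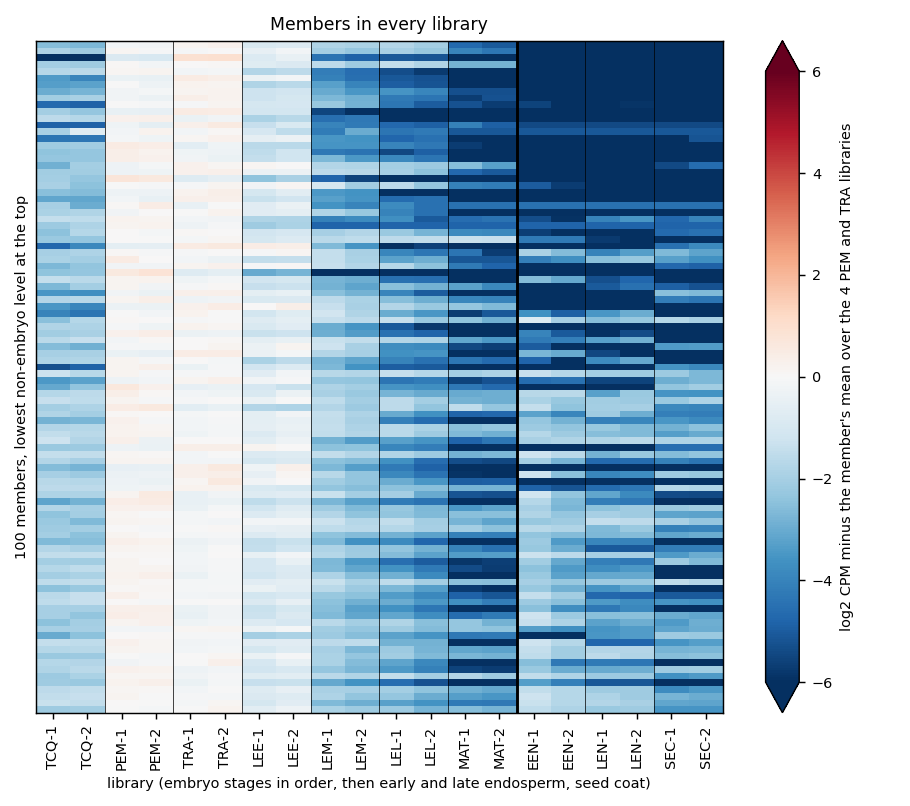
Each row is 1 of the 100 members and each column 1 of the 20 libraries. The colour is the log2 CPM value minus the mean of that member over its 4 PEM and TRA libraries. Both LEE libraries stay paler than the libraries of LEM and later stages in most rows, and the members at the top are dark in all endosperm and seed coat libraries.

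Summed over the members, the deposited values came to 4.40% and 4.41% of all CPM in the PEM libraries and to 4.57% and 5.13% in the TRA libraries. The sum was 1.31% and 1.32% at TCQ, 3.21% and 3.66% at LEE, 1.26% and 1.01% at LEM, and 0.300% and 0.274% at MAT. In endosperm it was 0.636% and 0.492% in EEN and 0.372% and 0.355% in LEN, and in seed coat it was 0.197% in both libraries. A single member, Bradi1g21870.1, made up much of this. Without it the members summed to 3.57% and 3.63% at PEM, 3.44% and 3.64% at TRA and 2.21% and 2.54% at LEE. Fewer cells of a kind and less RNA per cell cannot be told apart in such pooled samples.

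The member with the largest margin, Bradi2g16591.1 (3.70), was found in PEM, TRA and LEE embryos and hardly elsewhere. It stood at 4.68 and 4.59 log2 CPM at PEM, 6.49 and 6.51 at TRA, and 4.73 and 5.12 at LEE. The LEM libraries had 1.14 and 0.73, and the LEL libraries 0.46 and 0.41. In both TCQ libraries and in all 6 endosperm and seed coat libraries it was listed at its lowest value, which recurs exactly and is called its floor here. The next members by margin had like profiles. Bradi2g37650.1 (3.70) was at 4.28 and 3.98 at PEM and 4.83 and 5.08 at TRA, against -0.31 and -0.33 at TCQ. These were the 2 members below 1 CPM (0 log2 CPM) at TCQ. Bradi5g23717.1 (3.34) averaged 4.94 ± 0.09 at PEM and 5.31 ± 0.11 at TRA (SD, n = 2 each), against 1.59 ± 0.06 at LEM (SD, n = 2). Bradi2g57334.2 (3.27) was at 4.59 and 4.52 at PEM and 5.45 and 5.32 at TRA, against 1.58 and 0.99 at TCQ.

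Outside the embryo the members fell into 3 classes, formed after their values were seen and given as counts with no test. In 22 members no endosperm or seed coat library was above 1 CPM. Their medians were 5.21 log2 CPM at PEM, 5.47 at TRA and 4.69 at LEE, against -1.54 in EEN, -1.54 in LEN and -1.09 in SEC. In 51 members all 6 of these libraries were listed above 1 CPM. A floor can lie above 1 CPM, and in this class Bradi3g16657.1 was at its floor of 0.61 log2 CPM in all 6 libraries and Bradi4g14970.1 at its floor of 0.33 in both EEN libraries, so that detection there is not shown. This class had medians of 7.59 at PEM, 7.39 at TRA and 6.51 at LEE, against 4.98 in EEN, 4.28 in LEN and 3.68 in SEC. The remaining 27 members passed 1 CPM in part of these libraries. Of the 21 members with a margin above 2, 10 belonged to the first class. Floors differed between members, with -4.28 log2 CPM for Bradi3g22032.1 beside the 0.61 of Bradi3g16657.1. Whether the values were corrected for transcript length is not given in the sources used here. They are therefore read for the course of a gene and not for which of several genes is higher.

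**Figure D2:**
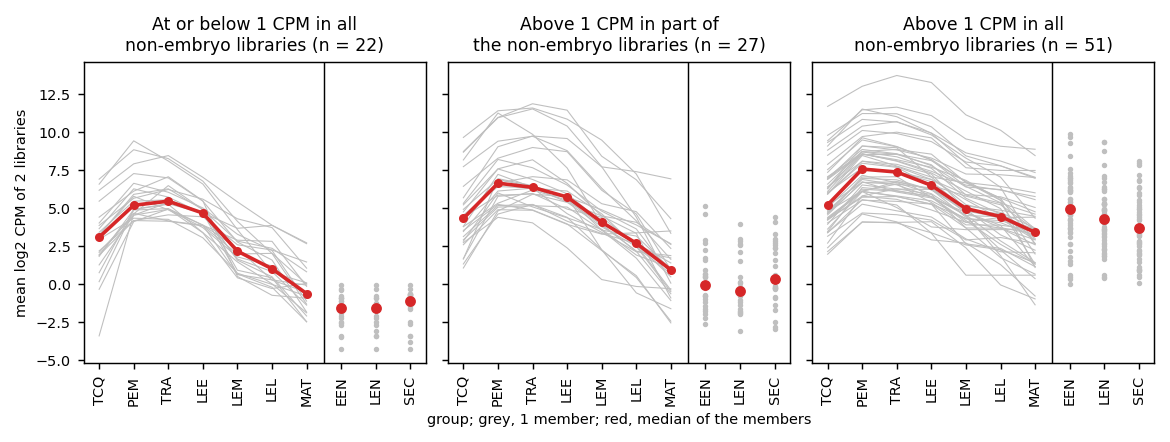
Mean log2 CPM of 2 libraries for each member (grey) and the median over the members (red), by group, in the 3 classes of 22, 27 and 51 members. Each class peaks at PEM or TRA and falls from LEE to MAT, while the level in EEN, LEN and SEC sets the classes apart.

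The libraries of a group did not differ evenly in the members. The median absolute difference between the replicates over the members was 0.10 log2 at PEM, 0.11 at TRA and 0.21 at LEE, but 0.41 at LEM, 0.44 at LEL and 0.49 in EEN. At LEM replicate 1 was higher in 92 of the 100 members, by a median of 0.41, and at LEL in 88, by a median of 0.42, while over all genes the median difference was 0.00 in both groups. In EEN replicate 1 was higher in 70 members, by a median of 0.45, against 0.00 over all genes. At LEE replicate 1 was lower in 85 members, by a median of -0.20. The part of these differences between replicates in the results was not tested. The counts that rest on LEM, LEL, LEE or EEN are given with and without a library where they moved. Of 16 patterning genes labelled by the study, 10 (MAT) to 15 (TCQ and PEM) were above 1 CPM in both libraries of each embryo stage, with 14 at TRA and 13 at LEE, against 4 in EEN, 4 in LEN and 5 in SEC.

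**Figure D3:**
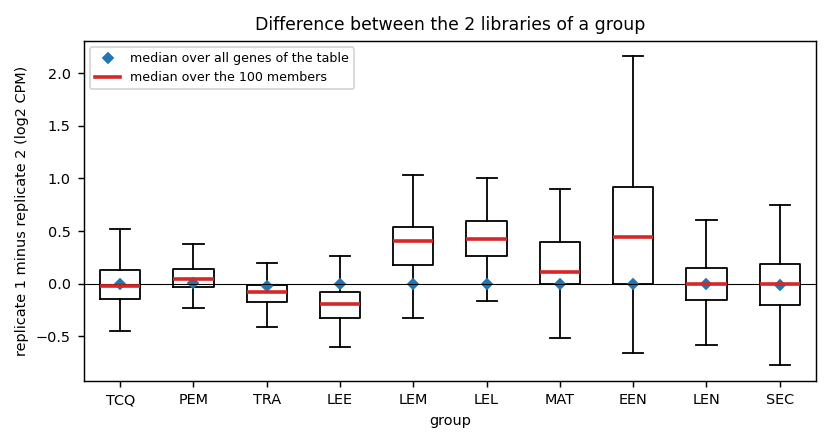
Replicate 1 minus replicate 2 in log2 CPM for the 100 members, by group. Boxes span the quartiles with the median in red, whiskers reach the last value within 1.5 times the box, more distant values are not drawn, and blue diamonds give the median over all genes. The boxes at LEM and LEL lie above 0 and the box at LEE lies below 0. The median in EEN also lies above 0.

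All 100 members had PEM and TRA libraries above the 14 libraries of TCQ, LEM, LEL, MAT, EEN, LEN and SEC, as had 12.9% of the other 7668 genes with PEM and TRA means of at least 4, and the choice of members fixes most of this. To see how much of the margin rests on the libraries that chose the genes, the rule was also run on 1 replicate and the margin read in the other. The 100 genes chosen on replicate 1 had a median margin of 1.49 there and 1.66 in replicate 2, where all 100 were above 0 and 93 above 1. Those chosen on replicate 2 had a median margin of 1.69 there and 1.46 in replicate 1, where 98 were above 0. Such margins are large beside most differences between replicates of the same group. A reading above 0 in the other replicate was therefore nearly assured and is no test of the choice. Of the 100 members, 85 were also chosen on replicate 1 alone and 87 on replicate 2 alone.

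In nearly all members LEE, which the rule did not use, lay above the limiting groups, whose highest mean the rule keeps low in the members and not in other genes. The shares of other genes given beside these counts are therefore no measure of what the members would show without that choice. The LEE mean was above the highest mean of the 7 limiting groups in 96 members, against 16.1% of the other 7668 genes with PEM and TRA means of at least 4. In 89 members both LEE libraries were above all 14 libraries of those groups, against 10.9% of those other genes. The 4 members whose LEE mean was not above the limiting groups were Bradi3g16657.1, Bradi1g08960.1, Bradi2g11870.1 and Bradi2g01170.4, in all of which it was below the TCQ mean (named after their values were seen). LEE was in most cases lower than the stages before it, with a mean below both PEM and TRA in 86 members. Compared with TCQ, 85 members were higher at LEE and 0 lower by limma. Of all tested genes 34.0% were higher and 28.8% lower, and of those with PEM and TRA means of at least 4, 38.5% and 30.1%. The median difference was 1.20 log2 over the members and 0.11 over all tested genes. At an unadjusted p under 0.05, 0 members were lower, while 1 was called lower with only these 2 groups in the fit. TCQ was a limiting group of the rule, so this difference has a chosen value on 1 side.

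Bradi2g59017.1 had the highest LEE mean relative to the mean of PEM and TRA (0.41 log2 above it), with 4.80 and 4.86 log2 CPM at PEM, 5.88 and 5.98 at TRA and 5.84 and 5.73 at LEE. It was higher at LEE than at TCQ (0.65 and 1.51) by 4.70 log2 (SE 0.33, adjusted p = 1.1e-08 from limma). For Bradi2g16591.1 no difference from TCQ is given, since both TCQ libraries were at its floor. At the other end, Bradi1g08960.1 stood at 8.14 and 8.23 at TCQ, 9.78 and 9.97 at TRA and 7.53 and 7.79 at LEE. Relative to the mean of PEM and TRA its LEE mean was the lowest of all members, at -2.91 log2.

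From TRA to LEE the members turned down together, though for many the difference did not pass the test. The LEE mean was below the TRA mean in 99 members, by a median of -0.73 log2, against a median difference of 0.01 over all tested genes. By limma 54 members were lower at LEE and 0 higher (0 at an unadjusted p under 0.05). Of all tested genes 10.7% were lower and 11.2% higher, and of those with PEM and TRA means of at least 4, 18.4% were lower and 7.66% higher. TRA was required to be high by the rule, so its values lean upward in these libraries. For the genes chosen on replicate 1 the median of LEE minus TRA was -0.77 in replicate 2, with 97 of 100 below 0. For those chosen on replicate 2 it was -0.78 in replicate 1, with 99 below 0. These genes were still chosen for TRA levels above those at LEM. The reading in the other replicate thus removes the lean of single libraries and not the choice itself. Fewer members were called with a library left out, as were fewer of all tested genes. The median of LEE minus TRA over the members then ran from -0.63 log2 (without LEE replicate 1) to -0.85 (without LEE replicate 2). The member whose LEE mean was not below its TRA mean was Bradi3g46190.1, at 4.04 and 4.21 at LEE and 4.03 and 4.13 at TRA, libraries that overlap.

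The deepest falls at this step were those of Bradi1g08960.1 and Bradi1g22830.1. Bradi1g08960.1 changed by -2.21 log2 (SE 0.32, adjusted p = 2.2e-04 from limma). Bradi1g22830.1 had 6.99 and 7.15 log2 CPM at LEE, against 8.99 and 8.98 at TRA, a change of -1.92 (SE 0.16, adjusted p = 2.2e-06). The libraries of these 2 stages do not overlap. Its LEM libraries had 6.87 and 6.49, and the difference from LEE, -0.39, did not pass the test (adjusted p = 0.0548).

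For most members a difference between TRA and PEM did not pass the test. The rule favoured like levels at these stages, so the number of calls partly reflects the choice of members. Of the 100, 11 were higher and 5 lower at TRA by limma, against 13.4% and 15.9% of all tested genes and 16.6% and 12.5% of those with PEM and TRA means of at least 4. The median difference was -0.11 log2. By their means 58 members were highest at PEM and 41 at TRA, and Bradi3g46190.1 was highest at LEE. The largest rise was that of Bradi2g16591.1, at 1.86 log2 (SE 0.26, adjusted p = 9.7e-05). Bradi2g59017.1 was higher at TRA by 1.10 (SE 0.33, adjusted p = 0.020), a call that was lost without any 1 of the 4 libraries (adjusted p from 0.0766 to 0.0998). The largest falls were those of Bradi1g08960.1, with 9.78 and 9.97 log2 CPM at TRA against 11.17 and 11.37 at PEM (-1.40, SE 0.32, adjusted p = 0.0039), and of Bradi1g21971.1, with 8.01 and 8.22 at TRA against 9.53 and 9.36 at PEM (-1.33, SE 0.27, adjusted p = 0.0018). The other members lower at TRA were Bradi5g20700.1, Bradi1g72410.1 and Bradi2g47474.1.

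These counts for TRA against PEM depend on which libraries set the error. The fit over all 20 libraries shares 1 estimate of the spread, while replicates of the members lay closer together at PEM and TRA than at LEM, LEL or in EEN. With the 4 PEM and TRA libraries alone, 27 members were higher and 42 lower at TRA, against 44.4% of all tested genes called in either direction. On the log2(CPM + 1) scale 15 were higher and 12 lower, against 30.5% of all tested genes called in either direction. Bradi1g11920.1, at 11.46 and 11.62 log2 CPM at TRA against 10.96 and 10.96 at PEM, did not pass in the fit over all libraries (0.58, SE 0.69, adjusted p = 0.58), although its libraries do not overlap. Without any 1 of these libraries fewer members were called, as were fewer of all tested genes. The median difference over the members was then -0.08 log2 without TRA replicate 1 and -0.15 without TRA replicate 2. It was -0.05 without PEM replicate 1 and -0.17 without PEM replicate 2.

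**Figure D4:**
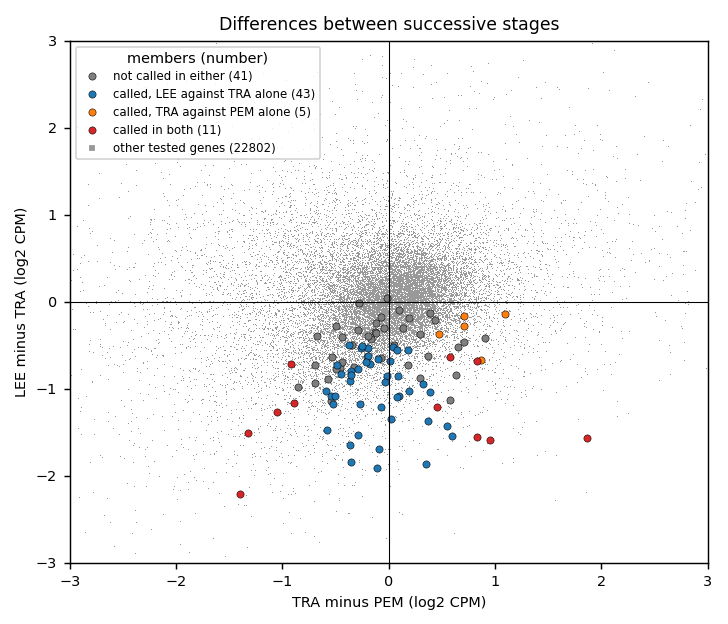
TRA minus PEM (horizontal axis) and LEE minus TRA (vertical axis), both in log2 CPM, for the 100 members (coloured by the limma calls) and the other 22802 tested genes (grey dots, 285 of them outside the axes). All members but 1 lie below the horizontal line, on both sides of the vertical one. TRA enters both axes with opposite signs, so the axes are not independent.

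All 100 members had a lower mean at LEM than at LEE, by a median of -1.62 log2, against -0.04 over all tested genes, and 95 were called lower and 0 higher (0 at an unadjusted p under 0.05). Of all tested genes 26.9% were called lower and 25.0% higher, and of those with PEM and TRA means of at least 4, 41.9% and 21.5%. LEM was a limiting group of the rule, so its values lean downward. Bradi2g58989.1 had 1.10 and -0.05 log2 CPM at LEM, against 5.49 and 5.50 at LEE, a change of -4.97 (SE 0.27, adjusted p = 3.2e-09 from limma). Bradi2g57334.2 had 0.93 and 0.45 at LEM, against 4.61 and 4.79 at LEE (-4.01, SE 0.23, adjusted p = 6.0e-09). The 5 members that did not pass were Bradi1g22830.1, Bradi1g46750.1, Bradi1g06420.1, Bradi5g20700.1 and Bradi2g51650.2 (differences from -0.18 to -0.80).

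**Figure D5:**
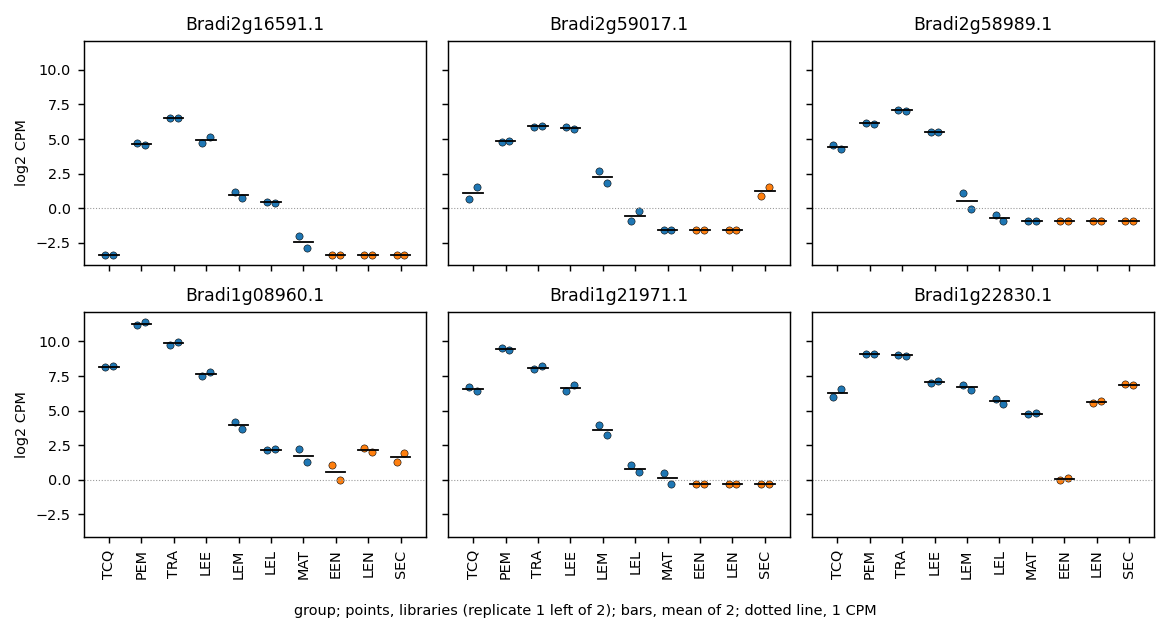
Log2 CPM in every library for 6 members named in the text, by group, with embryo libraries in blue and endosperm and seed coat libraries in orange. Points are libraries, bars the mean of 2, and the dotted line is 1 CPM. The upper 3 members are higher at TRA than at PEM, Bradi1g08960.1 and Bradi1g21971.1 are higher at PEM, and Bradi1g22830.1 is near 1 CPM in EEN but above 5 log2 CPM in LEN and SEC.

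In most members the means went on falling to maturity. In 91 of the 100 the mean fell at each step from LEE through LEM and LEL to MAT, against 31.4% of the other genes with PEM and TRA means of at least 4. From LEM to LEL 59 members were called lower and 0 higher (18.7% and 18.4% of all tested genes, 35.2% and 12.4% of those with PEM and TRA means of at least 4), and from LEL to MAT 77 were called lower and 0 higher (27.9% and 24.7%, 37.0% and 28.8%). At an unadjusted p under 0.05, 0 members were higher at either step. These comparisons, like that of the endosperm ages, were added after the data were examined. All these groups were limiting groups of the rule, so the counts describe the members and nothing is read from them against the shares of other genes. For LEL against LEM the median of the members was -0.86 log2, and -0.70 with either LEL replicate 2 or LEM replicate 1 left out. Fewer members were then called, as were fewer of all tested genes. With library medians set equal, 62.0% of the calls over all genes were higher at MAT than at LEL, in place of 47.0%, while 71 members were lower and 0 higher, and the median of the members was -0.97 log2 in place of -1.22. At MAT 23 members were below 1 CPM in both libraries, and 11 of the 100 were at their floor in both.

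Bradi1g11920.1 and Bradi1g32420.1 had the largest differences at the late steps, given as values with no test. Bradi1g11920.1 had 4.63 and 4.23 log2 CPM at LEL, against 7.82 and 7.67 at LEM (a difference of -3.32), and 1.02 and -0.85 at MAT (-4.35 from LEL). Bradi1g32420.1 stood at 6.82 and 6.87 at LEM, 5.54 and 5.56 at LEL, and 0.91 and 1.32 at MAT (-4.44 from LEL). Bradi2g59017.1 had -0.90 and -0.21 at LEL, against 2.72 and 1.83 at LEM (-2.83, and -1.80 on the log2(CPM + 1) scale). A contrary case was Bradi5g20700.1, named after its values were seen. It had 6.04 and 6.17 log2 CPM at PEM and 4.95 and 5.15 at TRA. Its means then were 3.78 in LEE, 3.60 in LEM, 3.60 in LEL and 3.68 in MAT embryos, and the libraries of these later stages overlap.

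Between the 2 ages of endosperm, both of which limited the choice of members, 38 members were called lower and 12 higher in LEN than in EEN by limma, against 30.9% and 31.3% of all tested genes and 45.2% and 24.8% of those with PEM and TRA means of at least 4. With EEN replicate 1 left out 24 were called lower and the median difference was 0.00 log2, and with EEN replicate 2 left out these were 47 and -0.60, so 1 library decides whether the median differs from 0. With all libraries the median was -0.33 log2 (-0.46 with library medians set equal and -0.16 on the log2(CPM + 1) scale). It was -0.56 in the class listed above 1 CPM in all 6 non-embryo libraries, where 27 of 51 were lower and 6 higher. The LEN mean was lower in 62 members, and in the others it was higher or, with both ages at the floor, equal. In both EEN libraries 18 members were at their floor, and in both LEN libraries 23. Bradi1g32420.1 had 3.64 and 3.64 log2 CPM in LEN, against 7.13 and 6.66 in EEN (a difference of -3.26). Bradi4g42740.1 had 0.29 and -0.69 in LEN, against 3.05 and 2.74 in EEN (-3.09). The opposite was seen in Bradi1g22830.1, with 5.54 and 5.69 in LEN, against 0.01 and 0.09 in EEN (5.57), and its SEC libraries had 6.91 and 6.83. Bradi5g09010.1 had 0.26 and 0.08 in LEN, against -1.56 and -2.90 in EEN (2.40, but 0.79 on the log2(CPM + 1) scale, since all 4 libraries lie near or below 1 CPM).

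The members lay on all 5 chromosomes, 32 on chromosome 1, 29 on 2, 15 on 3, 16 on 4 and 8 on 5. Of all measured genes 29.5%, 22.8%, 22.1%, 16.1% and 9.40% lie on these chromosomes. Members formed 4 pairs that follow each other directly in the order of identifiers among the measured genes. They are Bradi2g27720.1 with Bradi2g27740.1, Bradi1g21971.1 with Bradi1g21973.1, Bradi1g66360.1 with Bradi1g66370.1, and Bradi2g22991.1 with Bradi2g23004.1. Bradi2g58989.1 and Bradi2g59017.1 had 1 measured gene between them. Bradi2g08450.2 is the direct neighbour of MGP (Bradi2g08460.1), which was set aside, and had 4.90 and 4.88 log2 CPM at PEM and 4.85 and 5.12 at TRA, against 0.29 and 0.07 at TCQ. Whether neighbours are copies that share reads is not known from the sources used here.

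Over the 10 group means the 4 direct pairs of members correlated with r from 0.88 to 0.98, which the choice of members favours. Within these pairs single groups were not always alike. Relative to its own PEM libraries (8.71 and 8.75 log2 CPM), Bradi1g66360.1 had 6.37 and 5.77 in EEN. Bradi1g66370.1 had 3.27 and 2.20 in EEN, beside 7.52 and 7.67 at PEM. Bradi2g27740.1 had 4.42 and 4.41 at MAT, beside 4.55 and 4.25 at LEL, with libraries that overlap. Bradi2g27720.1 had 0.25 and 1.08 at MAT, beside 4.12 and 3.18 at LEL, with libraries that do not. Bradi1g21971.1 and Bradi1g21973.1 were both at their floor in all 6 endosperm and seed coat libraries.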

How the data were processed

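Libraries were made from amplified antisense RNA, 4 to a sequencing lane. The authors filtered the reads and quantified the JGI gene models of Bd21 with Salmon, and the submitters' notes also name CASAVA and Trimmomatic. The deposited values are log2 CPM, and how the authors scaled the libraries is not given in the sources used here. Without read numbers depth is unknown, so no interval for counting error could be had. The antilogs added up to between 739963 and 1084752 per library. A value that recurs in several libraries within 1e-06 as the lowest of its gene was read as a floor.

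The log2 values were tested as deposited with limma 3.58.1 in R 4.3.3, in a single fit of 20 libraries with a mean for each of 10 groups, a variance trend and no covariates (10 residual and 4.82 prior degrees of freedom). Of 23749 genes, 847 that did not exceed 0 log2 CPM in 2 or more libraries were left out and 22902 were tested, all members among them. P-values were 2-sided, adjusted by Benjamini-Hochberg over all tested genes within a comparison, and called at 0.05. The fit was also run on simulated data with independent noise. This covers neither correlated replicates, nor spreads that differ between groups, nor the choice of members, and nothing is concluded from it here. For LEL against LEM, MAT against LEL and LEN against EEN, added after the data were examined and made up of groups the rule used, single members are given without a test. Members and lists were chosen with earlier results of these data known. The 7 genes set aside, and the 16 patterning genes, carry the names the study gives them. Named members are at most 2 per direction and comparison, by size among calls whose libraries do not overlap, besides those of largest margin, at the limit, with extreme LEE level, and neighbours. Others are said to be named after their values were seen. None of the identifiers (0) occurred in the RefSeq table of 31335 genes, so functions and sequences are not given.

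The labels number the replicates. Deviations of same-numbered libraries correlated across genes with r from 0.16 to 0.55 in all 15 pairs among LEM, LEL, MAT, EEN, LEN and SEC, and from -0.11 to 0.09 among TCQ, PEM, TRA and LEE. The numbers were therefore read as pairing the libraries of those 6 later and non-embryo groups, from the data and not from a stated batch.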

Additional observations from a re-analysis of the deposited data

How the results depend on the processing

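The members called were counted again without the filter, with library medians set equal, on the log2(CPM + 1) scale, without the variance trend, with the replicate number as a block, with only the groups compared, and without each library in turn. Counts stayed within 1.5 times the reported one apart from those given here. For TRA against PEM, 16 calls became 27 on the log2(CPM + 1) scale and 69 with only these 2 groups in the fit, and 4 to 8 without a library. For LEE against TRA the count was 24 to 36 without a library, against 54, and for LEL against LEM 37 to 59, against 59. For LEM against LEE it was 85 to 94 (95 reported), for LEE against TCQ 66 to 79 (85), for MAT against LEL 62 to 82 (77) and for LEN against EEN 36 to 57 (50). The lone library of a group is then assumed to vary like the others. In each fit without a library the calls over all tested genes fell, while the count of members fell in most of these fits and held or rose in others. For TRA against PEM the members lost a larger share of their calls than all tested genes did. Whether the loss of calls is particular to the members was not tested.

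With the replicate block in all groups, the pairing moved no count of members by over 1.5 times (16 for TRA against PEM, 56 for LEE against TRA, 95 for LEM against LEE, 86 for LEE against TCQ, 60 for LEL against LEM, 79 for MAT against LEL and 51 for LEN against EEN). In the 6 groups that pair, added after seeing the data, the blocked counts were 56, 75 and 52 for the last 3. With the numbers of LEE crossed in the block, also added, they were 95 for LEM against LEE and 86 for LEE against TCQ.

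Of the 100 members, 40 were kept with LEE added to the limiting groups, 93 with library medians set equal, 96 on the log2(CPM + 1) scale, and 85 and 78 with PEM and TRA means of at least 3 and 5. Of 192 values of single members under an alternative, 0 changed direction, and the calls lost were those of Bradi2g59017.1 for TRA against PEM given above. These members were picked for the largest differences among those called, so this follows largely from that choice. Some of the values belong to the comparisons for which single members are given without a test.

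The members carry no names, 2 libraries per group allow little precision, and depth is unknown.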
